A study of Homo sapiens with 15 samples.

Results

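Cells that overexpressed ZC3H7A were compared with tag-only control cells by the number of ribosome footprints on each gene, in 3 libraries against 3. The comparison took in every gene with at least 10 normalized counts in at least 3 of these 6 libraries, which left 15069 of 55773 gene names in the deposited table. The cells were HEK293, an established human embryonic kidney line, in its Flp-In T-REx form, which carries an integration site and expresses the inserted gene when doxycycline is added. The control line has the genotype label Flag/HA overexpression, and the compared line is labelled Flag-HA/ZC3H7A-Overexpression. Both carry the treatment label doxycycline, which the protocol gives as 1 µg/mL for 24 h. Another line, labelled Flag-HA/ZC3H7B-Overexpression, enters only through the estimate of spread and through a direct comparison of ZC3H7A with ZC3H7B cells. Each group had 3 replicates that the protocol calls independent, all lysed in a hypotonic buffer, digested with RNase I and made into libraries with a NEXTFLEX small RNA kit. Each construct sat in a line of its own, so a response to the protein and a difference between the lines cannot be told apart. A footprint count also moves with the amount of mRNA, and the RNA sequencing of the same lines was not used here.

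ZC3H7A is a CCCH zinc finger protein, one of a class of proteins that bind RNA, and the study set out to ask how it and its relative ZC3H7B act on translation and mRNA stability depending on codons. In ribosome profiling, RNase removes the mRNA that ribosomes do not cover, and the protected pieces are sequenced, so the count on a gene follows the number of ribosomes on its mRNA. Most amino acids can be written with several codons that differ at the third base, and human genes range from mainly G or C to mainly A or T there. CCCH proteins are best known from the ZFP36 family, which recruits the CCR4-NOT deadenylase to mRNA, and from partners of the cap-binding repressor 4EHP, encoded by EIF4E2.

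The control libraries held 28261810 to 29515572 reads on genes and the ZC3H7A libraries 24703005 to 25922138, so depth did not overlap between the groups, and its part in the results was not tested. ZC3H7A itself (chr16:11750586-11797267, minus strand) stood at 6509, 6526 and 6607 in the control libraries and 37858, 37598 and 38675 with ZC3H7A (log2 change 2.54 ± 0.04, adjusted p = 8.4e-23), where values are normalized counts, that is, reads scaled by the authors for library size. ZC3H7B (chr22:41301522-41360147) stood at 2230.5, 2137 and 2089 in the control libraries and 2987, 2664 and 2809 with ZC3H7A (log2 change 0.39 ± 0.05, adjusted p = 2.6e-07). Both genes therefore separated the groups, the first by 5.81-fold and the second by 1.31-fold. Changes were computed as log2(value + 1), which dampens those of low genes, and are given ± SE, levels are given as means ± SD over 3 libraries, and adjusted p is limma's with Benjamini-Hochberg adjustment over all genes tested. A gene is said to have risen or fallen where that adjusted p was under 0.05.

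A majority of the genes measured moved, mostly by a little. Of 15069 genes tested, 8879 (58.9%) passed the test, 4490 higher (29.8%) and 4389 lower (29.1%). The calls had a median size of 0.45 on the log2 scale. Changes smaller than 1.2-fold made up 2018 of the calls, 3623 lay between 1.2- and 1.5-fold, 1987 between 1.5- and 2-fold, 1045 between 2- and 4-fold and 206 above 4-fold. At least 2-fold were 1251 genes (8.3%), 770 higher (5.11%) and 481 lower (3.19%), and with quantile normalization this split was 605 higher and 623 lower. In 9832 genes (65.2%) the values of the 3 ZC3H7A libraries and of the 3 controls did not overlap. For 2860 genes the 95% interval of the change lay wholly within 1.2-fold in either direction. The median change over all genes tested was 0.02, which is the level against which the gene groups are read. Through the ZC3H7A libraries alone 151 genes passed the filter and through the control libraries alone 99, and without them 4353 genes rose and 4309 fell.

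Genes that lie next to each other on a chromosome tended to move the same way, and this touches many of the gene groups. Protein-coding genes were placed in windows of 10 Mb, and of 242 windows with at least 20 of them, 15 had a median log2 change of 0.3 or more and 11 of -0.3 or less, limits chosen after seeing the data. They joined into 12 runs, 7 up and 5 down, with 1840 of 13172 placed genes. Inside the runs 79.7% of genes were called, against 60.7% outside, and the median size of the log2 change was 0.54 against 0.27. The windows were picked by the changes of these same genes, so a larger change inside them was set by that choice and is description only. DNA copy number of the lines was not analysed here.

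The end of chromosome 1, 0 to 30 Mb, had a median of -0.48 over 269 genes, of which 190 fell and 19 rose. Chromosome 12 at 90 to 120 Mb had a median of -0.61 over 151 genes, and chromosome 2 at 220 to 250 Mb one of -0.40 over 92. The mean log2 level of the genes of the chromosome 12 run, less that of all protein-coding genes tested, was 0.67, 0.66 and 0.65 in the control libraries and 0.04, 0.08 and 0.08 with ZC3H7A. No library of one group reached those of the other. Upward runs lay on chromosome 8 at 140 to 150 Mb (0.69, 72 genes), chromosome 14 at 90 to 110 Mb (0.52, 102 genes) and chromosome 20 at 20 to 70 Mb (0.53, 259 genes). Chromosome 19 held 2, with medians of 0.50 at 10 to 20 Mb and 0.55 at 30 to 60 Mb. Over the whole of chromosome 19, 627 of 937 genes rose and 70 fell.

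The runs were not alike in the direct comparison of both overexpressing lines. Against ZC3H7B cells the ZC3H7A cells had medians of -0.57 in the chromosome 1 run, -0.52 in the chromosome 12 run, -0.49 in the chromosome 2 run and 0.62 in the chromosome 8 run. Over the whole runs on chromosomes 14, 19 and 20 those medians were -0.02, -0.01 and 0.06, and 0.05. The shorter runs of chromosomes 6 and 21 had medians of 0.37 and -0.41. Within the longer run of chromosome 19 the window at 30 to 40 Mb, with 132 genes, had a median of 0.34, apart from the rest of that run. These differences between the overexpressing lines are given as values, with no test over the genes of a run. For this reason, where the median change of a gene group is given below, a second median follows, for which the median change of the other protein-coding genes within 5 Mb was subtracted from each member ("less neighbours"), a step chosen after seeing the data. Which genes lie in these runs can be said for well-known members: MTOR, EXOSC10 and HSPG2 lie in the chromosome 1 run, and FBL, TRIM28, AKT2 and DNMT1 in those of chromosome 19. A run is not named at every gene below, so a gene given without one, risen or fallen, can also lie in a run.

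**Figure D1:**
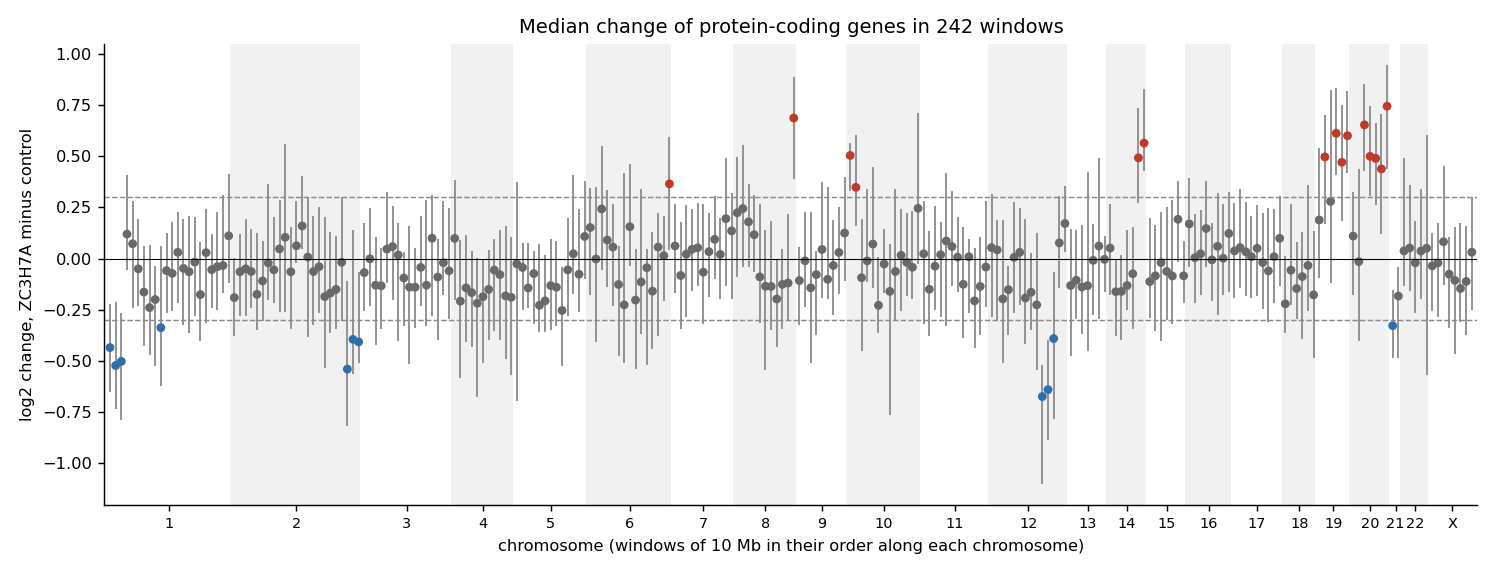
Each point is the median log2 change (ZC3H7A minus control, y axis) of the protein-coding genes in one 10 Mb window, in order along the chromosomes (x axis), and grey lines span the interquartile range of the genes. Red and blue points pass the dashed limits of 0.3 and -0.3, and most lie on chromosomes 1, 12, 14, 19 and 20.

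**Figure D2:**
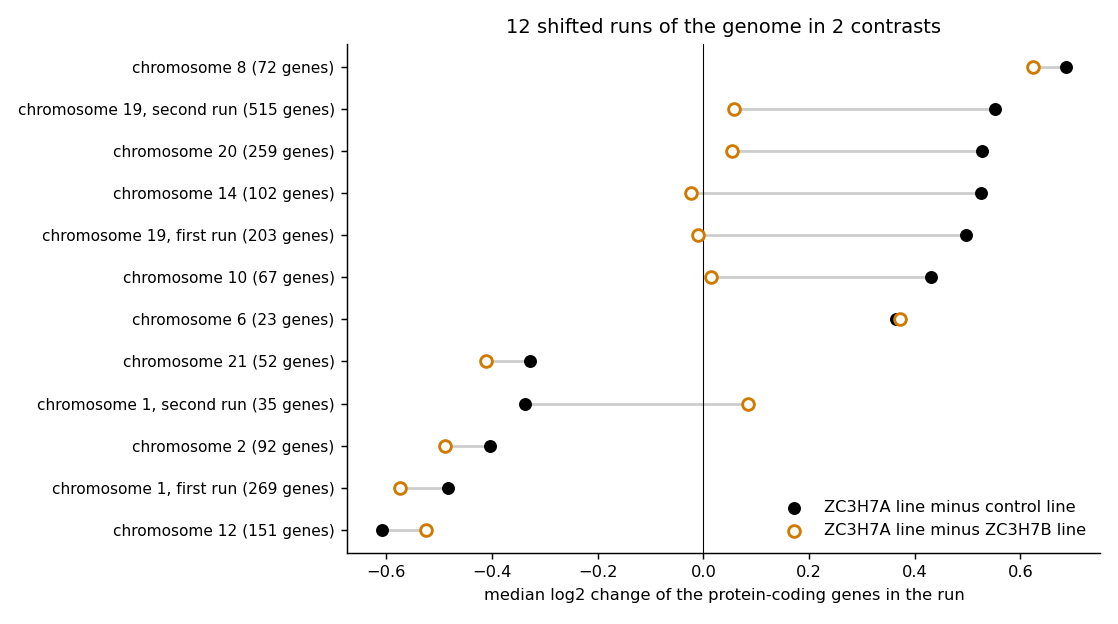
For each of the 12 runs (y axis, with its number of genes) the black point is the median log2 change against control and the open point that against the ZC3H7B line. The open points lie near 0 for chromosomes 10, 14, 19 and 20 and the second run of chromosome 1, and near the black points for chromosomes 6 and 8, the first run of chromosome 1 and chromosomes 2, 12 and 21.

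The third base of the codons went with the direction of change. Genes whose coding sequence ended its codons mostly in G or C had higher footprint levels in ZC3H7A cells, and genes rich in codons ending in A or T had lower ones. For 13155 genes with a coding sequence in GENCODE 29, 5 equal classes were made by the percentage of codons ending in A or T, called AT3 here. In the class lowest in AT3 (up to 24.5%) 1153 of 2631 genes rose and 444 fell, with a median log2 change of 0.22. In the highest class (from 58.7%) 502 rose and 1338 fell, with a median of -0.15. The classes between had medians of 0.10, 0.02 and -0.08, so the 5 medians fell in order. By coding length the medians also fell in order but over a smaller range, at 0.0291, 0.0194, 0.0161, 0.0158 and -0.0374 from the shortest to the longest class. In the longest class 36.8% of genes fell and 28.4% rose.

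The difference between the outer classes can be given for each library. The mean log2 level of the highest class less that of the lowest was 2.76, 2.75 and 2.76 in the control libraries and 2.32, 2.42 and 2.44 with ZC3H7A. All 3 ZC3H7A libraries lay below all 3 controls, and the two-sided exact permutation p was 0.1, the smallest that 3 against 3 can give. The difference between the 2 classes' median changes was -0.37, and -0.18 after subtraction of the neighbouring genes, so it was smaller but kept its sign. Outside the shifted windows it was -0.32, and without chromosome 19 -0.33. Between the ZC3H7A and ZC3H7B lines the 5 class medians were 0.02, 0.00, -0.01, 0.00 and 0.01, all near 0. Base composition also goes with chromosome position and with level: the lowest class had a median level of 309.7 and the highest one of 2134. Their part in the codon difference was not tested beyond these values.

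Single codons followed the same division. Across the 13155 genes, the share of each of the 30 sense codons ending in A or T had a negative rank correlation (Spearman's rho) with the change, from -0.27 for ATT, an isoleucine codon, to -0.0027 for the arginine codon CGT. Of the 29 codons ending in G or C, with ATG and TGG left out, 28 had a positive one, up to 0.27 for the proline codon CCC. The exception was the leucine codon TTG, at -0.22. After subtraction of neighbouring genes 27 of 30 and 27 of 29 kept these signs, and rho for AT3 as a whole was -0.27 before and -0.17 after. These are correlations across genes, which share libraries and base composition and are not independent replicates.

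Beginnings of coding sequences show what the classes look like as codons. The genes are those with the largest called rise and fall at a mean of 1000 or more in the highest and in the lowest AT3 class, and codons 2 to 31 are printed 5′ to 3′ on the coding strand from GENCODE 29 transcripts on GRCh38. Capitals mark an A or T at the third base of a codon. ZC3H7A and TFPI come from the class richest in A or T, and HOXA13 and HSPG2 from the poorest.
ZC3H7A: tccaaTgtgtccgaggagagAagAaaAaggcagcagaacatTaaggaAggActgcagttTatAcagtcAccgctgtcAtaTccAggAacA
TFPI: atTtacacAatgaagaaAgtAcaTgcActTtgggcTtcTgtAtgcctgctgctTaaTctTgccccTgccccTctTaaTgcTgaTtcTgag
HOXA13: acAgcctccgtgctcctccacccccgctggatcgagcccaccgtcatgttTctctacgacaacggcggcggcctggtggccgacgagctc
HSPG2: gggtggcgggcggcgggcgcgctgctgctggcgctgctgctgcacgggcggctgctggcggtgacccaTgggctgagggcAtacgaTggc

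The ZC3H7A stretch (chr16:11781440-11782351, minus strand, spanning 1 intron) holds 15 such codons of 30, and its whole coding sequence of 970 codons has an AT3 of 64.2%; the expressed construct's own sequence was not analysed here. TFPI (chr2:187503676-187503765, minus strand), which encodes an inhibitor of blood coagulation, holds 20 of 30 and has an AT3 of 64.7% over 303 codons. HOXA13 (chr7:27199985-27200074, minus strand), a homeobox gene of the most posterior group, holds 2 of 30 with an AT3 of 19.4% over 387 codons. HSPG2 (chr1:21896281-21937214, minus strand, spanning 1 intron), which encodes the basement membrane proteoglycan perlecan, holds 3 of 30 with 23.3% over 4390 codons. TFPI stood at 1768, 1538 and 1661 in the control libraries and 558, 633 and 582 with ZC3H7A (log2 change -1.48 ± 0.08, adjusted p = 5.3e-13). HOXA13 stood at 927, 1071 and 979 in the control libraries and 2378, 2473 and 2654 with ZC3H7A (log2 change 1.33 ± 0.06, adjusted p = 1.9e-14). Their groups did not overlap, and their directions were set by the choice of a fall in one class and a rise in the other. HSPG2 stood at 1747, 1771 and 1732 in the control libraries and 656, 620.3 and 546 with ZC3H7A (log2 change -1.53 ± 0.07, adjusted p = 1.8e-14), a fall in a class where rises were more frequent, and it lies in the falling run of chromosome 1.

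The level of a gene also went with its change. In 5 classes by mean normalized count, from the lowest to the highest, the median log2 changes were 0.17, 0.11, 0.05, -0.01 and -0.10. In the highest class, from 2916 normalized counts, 1457 of 3014 genes fell and 699 rose, and in the lowest, up to 57.7, 614 rose and 326 fell. The difference between these outer classes was -0.26, but with quantile normalization it was 0.0029, so its direction rests on the scaling. Calls of 2-fold or more numbered 642 genes in the lowest class and 29 in the highest. The precision differed as well, with a median SE of 0.37 in the lowest class and 0.047 in the highest, so small changes could be called mainly among abundant genes.

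**Figure D3:**
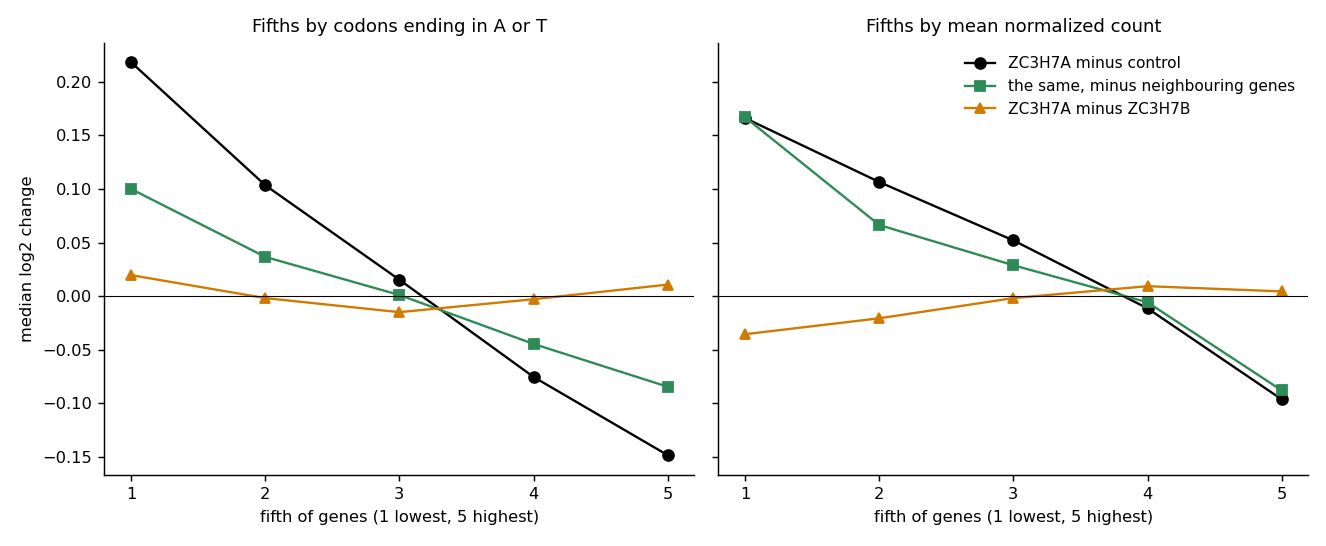
Median log2 change (y axis) of 5 classes of genes, by AT3 on the left and by mean normalized count on the right (x axes, lowest to highest), for ZC3H7A against control, the same after subtraction of neighbouring genes, and ZC3H7A against ZC3H7B. The first falls from 0.22 to -0.15 over the AT3 classes, while the comparison with the ZC3H7B line stays near 0.

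Of 76 gene lists taken up, 36 had a median change above 0 and 40 below it, and the lists held 3851 tested genes. Counts of a list are to be read against the 29.8% of all genes that rose and the 29.1% that fell. For counts against ZC3H7B cells, the shares of all genes were 19.1% higher and 18.6% lower with ZC3H7A. A gene can stand in several lists. Named from a list are an anchor gene and the largest rise and fall among called members whose groups did not overlap. For those rises and falls, the call and the lack of overlap were set by that choice. Among all genes tested, 65.2% did not overlap. The largest medians belonged to lysosomal genes, which fell, and to homeobox genes, which rose.

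**Figure D4:**
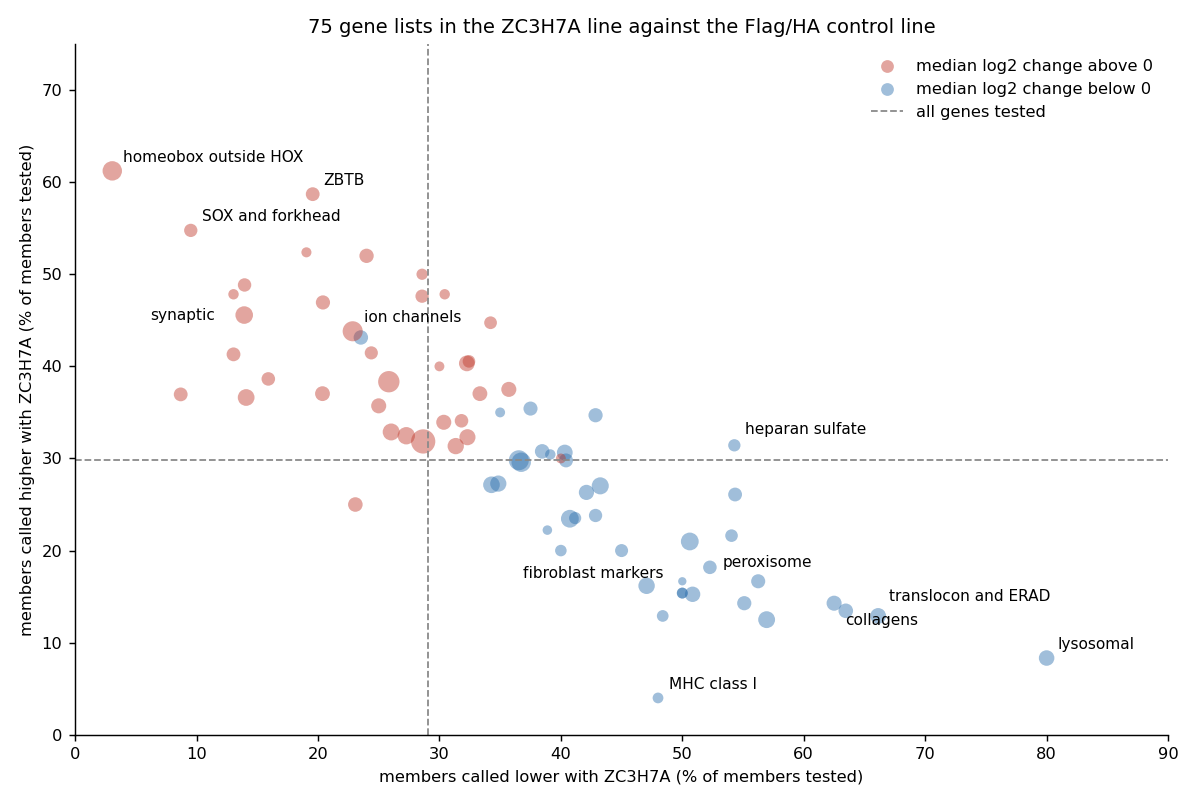
Each circle is one gene list with at least 10 members tested, placed by the percentage of its tested members that fell (x axis) and rose (y axis); circle area grows with the number of members and dashed lines give the percentages for all genes. Lysosomal genes lie farthest to the right, with 48 of 60 lower, and homeobox genes highest, with 60 of 98 higher.

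Lysosomes break down proteins, lipids and glycans with acid hydrolases. Of 60 lysosomal hydrolases and membrane proteins tested (61 listed), 48 fell and 5 rose, with a median log2 change of -0.49, and of -0.40 after subtraction of neighbouring genes. LAMP1, which encodes an abundant protein of the lysosomal membrane (chr13:113297241-113323672), stood at 11928, 11584 and 11315 in the control libraries and 8163, 8415 and 8014 with ZC3H7A (log2 change -0.50 ± 0.04, adjusted p = 1.5e-09). GAA, the glucosidase that degrades glycogen in lysosomes (chr17:80101556-80119879), stood at 2036, 1842 and 1889 in the control libraries and 799, 709.8 and 708 with ZC3H7A (log2 change -1.38 ± 0.06, adjusted p = 2.8e-14). CTSH, a cysteine protease (chr15:78921058-78949574), stood at 154, 162 and 158 in the control libraries and 356, 331 and 353 with ZC3H7A (log2 change 1.13 ± 0.11, adjusted p = 1.0e-08). In each of these 3 genes the groups did not overlap, LAMP1 and GAA being lower and CTSH higher with ZC3H7A. The others that rose, named after their values were seen, were CTSZ, IDS, LGMN and GLA. Against ZC3H7B cells 16 of the members were higher and 23 lower.

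Lists of neighbouring function leaned the same way. Of the V-ATPase, the pump that acidifies lysosomes, 13 of 26 subunits and assembly factors fell and 4 rose (median -0.17, -0.17 less neighbours). ATP6V1A, its catalytic subunit, fell from 7152 ± 165 to 4811 ± 102 (log2 change -0.57 ± 0.05), and ATP6V0B of the membrane part fell from 4043 ± 208 to 2442 ± 286 (log2 change -0.73 ± 0.06). TMEM199, an assembly factor, rose from 116 ± 5.42 to 181 ± 17.1 (log2 change 0.64 ± 0.14). Core autophagy genes showed 27 lower and 7 higher of 49 (median -0.16, -0.18 less neighbours), and 27 and 6 when 1 member that entered through the ZC3H7A libraries alone is left out. FAM134B, a receptor for autophagy of the endoplasmic reticulum, fell from 1021 ± 26.4 to 650.5 ± 2.22 (log2 change -0.65 ± 0.07), while the protease ATG4D rose from 310.5 ± 3.67 to 531 ± 43.4 (log2 change 0.77 ± 0.09).

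The entry to the secretory pathway fell as well. The translocon threads new proteins into the endoplasmic reticulum (ER), signal peptidase trims them, and ER-associated degradation removes those that misfold. Of 62 such genes 41 fell and 8 rose, with a median of -0.28, and of -0.25 after subtraction of neighbouring genes. SEC61A1, which encodes the channel of the translocon (chr3:128051641-128071683), stood at 9013, 8881 and 8644 in the control libraries and 6569, 7088 and 6619 with ZC3H7A (log2 change -0.39 ± 0.04, adjusted p = 6.6e-08). EMC1, a subunit of the ER membrane complex that lies in the falling run of chromosome 1 (chr1:19215664-19251552), stood at 10165, 9456 and 9519 in the control libraries and 4858, 5058 and 4709 with ZC3H7A (log2 change -0.99 ± 0.04, adjusted p = 1.9e-14). SRP19, a protein of the signal recognition particle (chr5:112861188-112898371), stood at 111, 135 and 167 in the control libraries and 245, 232 and 322 with ZC3H7A (log2 change 0.95 ± 0.15, adjusted p = 9.0e-06). SEC61A1 and EMC1 were lower and SRP19 higher in all 3 ZC3H7A libraries than in any control. Between the overexpressing lines 24 members were higher and 11 lower with ZC3H7A.

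Of N-glycosylation and GPI anchor synthesis, 41 of 72 genes fell and 9 rose (median -0.19, -0.24 less neighbours). STT3A, a catalytic subunit of oligosaccharyltransferase, fell from 17952 ± 410.1 to 13939.6 ± 959 (log2 change -0.37 ± 0.05), and PIGP of the first step of GPI anchor synthesis fell from 1836 ± 89.6 to 829 ± 87.2 (log2 change -1.15 ± 0.07), while PIGL of the second step rose from 424 ± 29.3 to 576 ± 48.6 (log2 change 0.44 ± 0.09). Vesicle transport by COPI, COPII and TMED proteins fell in 30 of 59 cases and rose in 9 (median -0.13, -0.20 less neighbours). KDELR3, a retrieval receptor for ER proteins, fell from 946 ± 42.2 to 522 ± 7.90 (log2 change -0.86 ± 0.07), and the small GTPase ARF3 rose from 367 ± 72.4 to 1074 ± 163 (log2 change 1.56 ± 0.11); the COPII coat gene SEC24D did not pass (log2 change -0.10, adjusted p = 0.17). Rab GTPases, which direct vesicles to their targets, showed 13 higher and 12 lower of 52, a smaller share than among all genes in both directions. RAB3D rose from 170.3 ± 21.2 to 352 ± 9.31 (log2 change 1.05 ± 0.12) and RAB33B fell from 373 ± 33 to 259 ± 32.9 (log2 change -0.53 ± 0.11). Against ZC3H7B cells 17 Rab genes were higher and 1 lower.

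MHC class I molecules carry peptides to the cell surface, with beta-2-microglobulin as their light chain. Of 25 genes of this pathway tested (30 listed), 12 fell and 1 rose, with a median of -0.37, and of -0.47 after subtraction of neighbouring genes. B2M, the light chain (chr15:44711487-44718877), stood at 20106, 18623 and 18719 in the control libraries and 11841, 12199 and 11062 with ZC3H7A (log2 change -0.71 ± 0.05, adjusted p = 2.1e-11). ERAP2, an aminopeptidase that trims peptides in the ER (chr5:96875939-96919716), stood at 3939, 4114 and 4101 in the control libraries and 1472, 1545 and 1543 with ZC3H7A (log2 change -1.41 ± 0.05, adjusted p = 2.2e-15). HLA-E, a class I heavy chain (chr6:30489467-30494205), stood at 1782, 1599 and 1599 in the control libraries and 2158, 1932 and 1888 with ZC3H7A (log2 change 0.26 ± 0.06, adjusted p = 0.0012), and was the 1 member that rose. All 3 genes separated the groups, B2M and ERAP2 downwards. Others that fell, named after their values were seen, were ERAP1, HLA-B, HLA-C, HLA-F, NLRC5, ULBP2, CANX, PDIA3 and CALR. HLA heavy chain genes are near-identical copies, so reads could be split between them and their single values are uncertain.

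**Figure D5:**
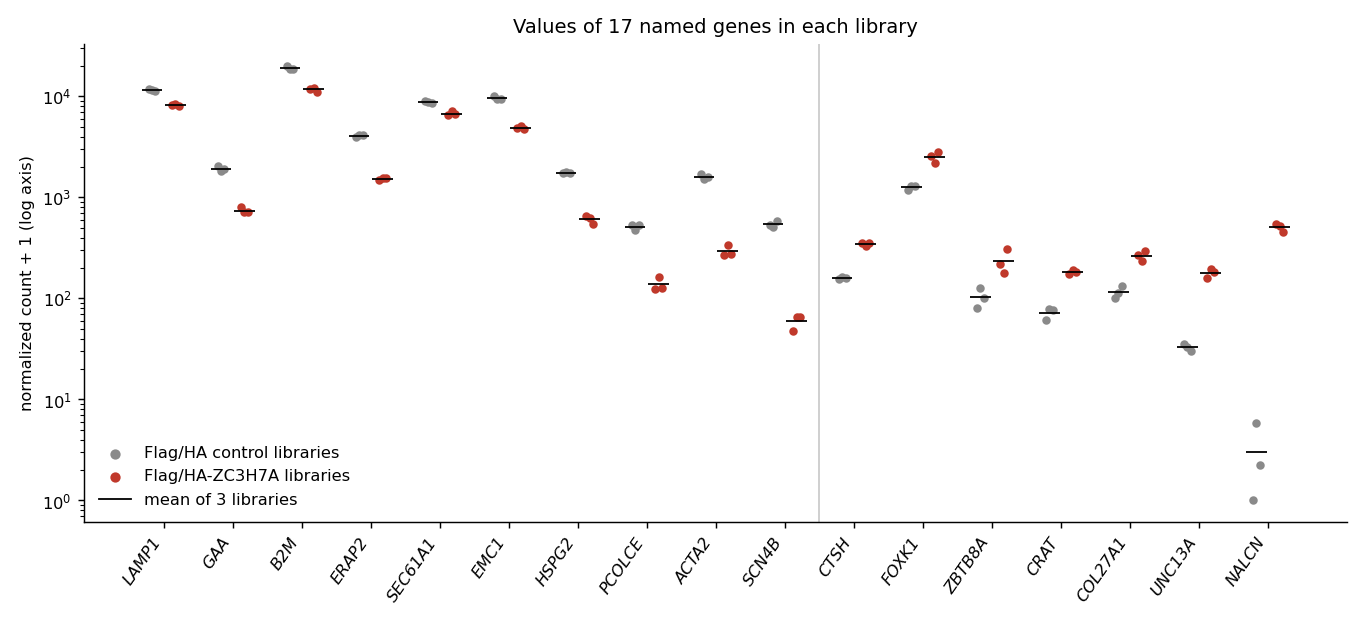
Normalized count + 1 (y axis, log) of 17 genes named from the 12 gene lists with the largest medians, with one point per library, grey for control and red for ZC3H7A, and a black line at each mean. Genes left of the grey line were lower with ZC3H7A and those right of it higher. No red point overlaps the grey ones within a gene, which the choice of genes fixed for the largest rises and falls. NALCN passed the filter through the ZC3H7A libraries alone.

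Collagens and their enzymes build the extracellular matrix. Of 56 tested (71 listed), 35 fell and 8 rose, with a median of -0.27 and of -0.29 after subtraction of neighbouring genes. COL4A1, a chain of the basement membrane collagen (chr13:110148963-110307233), stood at 6196, 6083 and 6229 in the control libraries and 5483, 5479.7 and 4985 with ZC3H7A (log2 change -0.22 ± 0.05, adjusted p = 3.2e-04). PCOLCE, which enhances the processing of procollagens (chr7:100602177-100608175), stood at 530.4, 474 and 533 in the control libraries and 123, 161 and 125 with ZC3H7A (log2 change -1.91 ± 0.13, adjusted p = 2.7e-11). COL27A1, a fibrillar collagen (chr9:114155560-114312511), stood at 100.0, 112 and 133 in the control libraries and 269, 232 and 293 with ZC3H7A (log2 change 1.2 ± 0.15, adjusted p = 2.4e-07). The groups did not overlap in any of the 3, with COL4A1 and PCOLCE lower. Heparan sulfate proteoglycans are surface and matrix proteins with sulfated sugar chains, and 19 of 35 of them and their enzymes fell while 11 rose (median -0.25, -0.14 after subtraction of neighbours).

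GPC3, a glypican held at the surface by a GPI anchor (chrX:133535745-133985895), stood at 2959.6, 2730.0 and 2736 in the control libraries and 2397, 2136 and 2136 with ZC3H7A (log2 change -0.34 ± 0.06, adjusted p = 2.5e-05). HS6ST1, an enzyme that adds sulfate to the chains (chr2:128236716-128318577), stood at 84.8, 110.1 and 90.5 in the control libraries and 171, 159 and 153 with ZC3H7A (log2 change 0.76 ± 0.15, adjusted p = 1.2e-04). With HSPG2, described above among the coding sequences, GPC3 was lower and HS6ST1 higher without overlap of the groups. Integrins and focal adhesion genes, which tie the cell to the matrix, showed 18 lower and 8 higher of 40 (median -0.16, -0.17 less neighbours). ITGB1, the integrin beta chain with the most partners, fell from 25161 ± 269 to 15504 ± 571 (log2 change -0.70 ± 0.05), and ITGA9 rose from 72.7 ± 11.6 to 244 ± 18.2 (log2 change 1.74 ± 0.16). Cadherins and protocadherins join cells to each other, and 25 of 46 fell while 12 rose (median -0.18, -0.22 less neighbours, 25 and 10 of 44 without 2 members that entered through the ZC3H7A libraries alone). CDH2, the N-cadherin of these cells, fell from 9581 ± 291 to 8519 ± 317 (log2 change -0.17 ± 0.05), and CDHR5 rose from 22.7 ± 2.11 to 109.6 ± 37.3 (log2 change 2.18 ± 0.23). Tight junction proteins, claudins and tetraspanins showed 24 lower and 15 higher of 57, with TSPAN6 lower at a log2 change of -0.85 and the junction molecule F11R higher at 1.22.

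Transcription factor families with roles in development rose. Of homeobox genes outside the HOX clusters 98 were tested of 132 listed, 60 rose and 3 fell, with a median of 0.40 and of 0.38 after subtraction of neighbouring genes. Through the ZC3H7A libraries alone 4 of them passed the filter, and without these 56 rose and 3 fell of 94. Their median AT3 was 25.1%, against 41.2% over all genes with a coding sequence, and their median level 224 against 688. HLX (chr1:220879400-220885059) stood at 316, 309 and 302 in the control libraries and 237, 236 and 216 with ZC3H7A (log2 change -0.43 ± 0.11, adjusted p = 0.0017). HLX was lower in all ZC3H7A libraries than in any control. The other homeobox genes that fell, named after their values were seen, were LHX1 and HOMEZ. HDX, 1 of the genes that passed through the ZC3H7A libraries alone (chrX:84317874-84502479), stood at 0, 2.39 and 0 in the control libraries and 268, 231 and 331 with ZC3H7A. It had 2 reads over the control libraries and 619 with ZC3H7A, and because of how it passed the filter no change or test is given.

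SOX and forkhead factors rose in 23 of 42 cases (64 listed) and fell in 4, with a median of 0.33 and of 0.29 after subtraction of neighbours. FOXO3, a target of insulin signalling (chr6:108559835-108684774), stood at 744, 878 and 796 in the control libraries and 998, 1021 and 1109.9 with ZC3H7A (log2 change 0.37 ± 0.07, adjusted p = 8.7e-05). FOXK1, a repressor of autophagy and starvation genes (chr7:4682309-4771443), stood at 1192, 1289.6 and 1289 in the control libraries and 2596, 2182 and 2794 with ZC3H7A (log2 change 1.00 ± 0.07, adjusted p = 1.7e-11). SOX5, a factor of neural and cartilage development (chr12:23529500-24562544), stood at 153, 173 and 158 in the control libraries and 72.3, 92.2 and 100.4 with ZC3H7A (log2 change -0.88 ± 0.15, adjusted p = 2.0e-05). FOXO3 and FOXK1 were higher and SOX5 lower in every ZC3H7A library than in the controls. The others that fell, named after their values were seen, were FOXN4, SOX13 and FOXF1, and the median AT3 of the list was 17.6%.

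ZBTB factors are zinc finger proteins with a BTB domain, many of them repressors, and 27 of 46 rose while 9 fell (median 0.30, 0.29 after subtraction of neighbours). ZBTB7A, a repressor of fetal globin (chr19:4044364-4066945), stood at 516, 525 and 513 in the control libraries and 724, 634 and 682 with ZC3H7A (log2 change 0.39 ± 0.08, adjusted p = 3.1e-04). ZBTB8A (chr1:32539427-32605939) stood at 79.7, 126 and 99.3 in the control libraries and 218, 177 and 305 with ZC3H7A (log2 change 1.18 ± 0.17, adjusted p = 3.0e-06). BCL6, the repressor that directs germinal centre B cells (chr3:187721377-187745727), stood at 159, 176 and 158 in the control libraries and 80.3, 95 and 80.9 with ZC3H7A (log2 change -0.94 ± 0.16, adjusted p = 2.4e-05). The groups did not overlap in these genes, BCL6 being lower. Their median AT3 was 40.4%, close to that of all genes. Between the overexpressing lines 4 of the 46 ZBTB genes were higher and 6 lower with ZC3H7A, smaller shares than among all genes in both directions.

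Nuclear receptors and their coregulators rose in 17 of 46 cases and fell in 4 (median 0.09, 0.12 less neighbours). NR2F2, an orphan receptor of mesoderm and vessels, rose from 2561 ± 50.3 to 3717 ± 44.8 (log2 change 0.54 ± 0.04), and NR2C1 fell from 3923 ± 7.51 to 1987 ± 39.9 (log2 change -0.98 ± 0.05). Others that fell, named after their values were seen, were PPARGC1A and NCOA4. Immediate early, AP-1 and MYC network genes rose in 17 of 41 cases and fell in 10. MYC, a driver of growth, rose from 2779.6 ± 128 to 5419 ± 422 (log2 change 0.96 ± 0.06) and MYCL from 62.4 ± 0.86 to 139 ± 19.6 (log2 change 1.14 ± 0.17), while JUN, an AP-1 subunit, fell from 8849 ± 138 to 4707 ± 416 (log2 change -0.91 ± 0.06). MYC was also higher with ZC3H7A than with ZC3H7B (log2 difference 0.68), and JUN lower (-0.43).

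Genes of electrical and synaptic function, low in these cells, rose more often than they fell. Of potassium, sodium and calcium channels 105 were tested of 181 listed, 46 rose and 24 fell, with a median of 0.29. Without 7 members that passed the filter through 1 group alone, 40 rose and 23 fell of 98 (median 0.24). NALCN, a sodium leak channel (chr13:101053776-101416492), stood at 0, 4.79 and 1.26 in the control libraries and 539.6, 521 and 453 with ZC3H7A, and it passed the filter through the ZC3H7A libraries alone, so no change or test is given. SCN4B, an auxiliary subunit of sodium channels (chr11:118133377-118152888), stood at 534, 511 and 585 in the control libraries and 46.9, 64.3 and 65.2 with ZC3H7A (log2 change -3.20 ± 0.15, adjusted p = 5.1e-14). SCN4B was lower in every ZC3H7A library than in any control. The median level of the list was 107, and its median after subtraction of neighbours 0.20. Its median AT3 was 25.1%, close to 24.5%, the upper limit of the lowest AT3 class. Of the list 43.8% rose and 22.9% fell, and of that whole class 43.8% rose and 16.9% fell, with a median of 0.22. Whether the list rose beyond what goes with its base composition was not tested.

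Neurotransmitter receptors and synaptic scaffold proteins rose in 36 of 79 cases (153 listed) and fell in 11, with a median of 0.30, and of 0.31 less neighbours. Without 6 members that passed the filter through 1 group alone, 31 rose and 10 fell of 73 (median 0.22). DLG4, the main scaffold of excitatory synapses (chr17:7187169-7219841), stood at 158, 130.4 and 159.7 in the control libraries and 174, 190.0 and 143 with ZC3H7A (log2 change 0.17 ± 0.14, adjusted p = 0.31). UNC13A, which readies synaptic vesicles for fusion and lies in a rising run of chromosome 19 (chr19:17601328-17688365), stood at 34.2, 32.3 and 28.9 in the control libraries and 159, 196 and 180.0 with ZC3H7A (log2 change 2.45 ± 0.18, adjusted p = 1.1e-10). DLGAP1, another scaffold protein (chr18:3496032-4455335), stood at 105, 124 and 145 in the control libraries and 6.70, 8.38 and 10.4 with ZC3H7A (log2 change -3.73 ± 0.38, adjusted p = 1.7e-08). DLG4 overlapped between the groups and did not pass, UNC13A was higher and DLGAP1 lower in every ZC3H7A library. The median AT3 of this list was 26.5%, and 45.6% of it rose and 13.9% fell, near the shares of the lowest AT3 class, 43.8% and 16.9%. Against ZC3H7B cells 29 members were higher and 11 lower (median difference 0.24).

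Metabolic enzymes of several compartments fell. Peroxisomes break down very long fatty acids and make ether lipids, and 23 of 44 of their genes fell while 8 rose (median -0.23, -0.14 after subtraction of neighbours). PEX5, the import receptor for peroxisomal enzymes (chr12:7188685-7218574), stood at 1803, 1750.2 and 1795 in the control libraries and 2267, 2138 and 2305 with ZC3H7A (log2 change 0.33 ± 0.05, adjusted p = 1.6e-05). CRAT, carnitine acetyltransferase (chr9:129094810-129111189), stood at 60.8, 77.8 and 75.4 in the control libraries and 174, 191 and 181 with ZC3H7A (log2 change 1.35 ± 0.17, adjusted p = 4.9e-07). PEX5 and CRAT were higher with ZC3H7A without overlap, against the lean of the list. Fatty acid synthesis, desaturation and oxidation genes showed 33 lower and 7 higher of 52 (median -0.22, -0.24 less neighbours). ACADM, a mitochondrial dehydrogenase of beta-oxidation, fell from 7116 ± 141 to 3644 ± 196 (log2 change -0.97 ± 0.05), and FASN, the fatty acid synthase, fell from 33754 ± 1059 to 29642 ± 1517 (log2 change -0.19 ± 0.05).

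Cholesterol synthesis and uptake genes showed 15 lower and 4 higher of 31 (median -0.16, -0.11 less neighbours). SC5D, which acts at a late step, fell from 4119 ± 98.5 to 2140.1 ± 177 (log2 change -0.95 ± 0.06). Among those that rose, named after their values were seen, were MYLIP, FDFT1 and IDI1. In the direct comparison 20 of these genes were higher with ZC3H7A than with ZC3H7B and 5 lower, with a median difference of 0.23. Among all genes 19.1% were higher and 18.6% lower in that comparison. Amino acid transporters differed in the same direction between the lines, 16 higher and 2 lower of 28, and against control 14 rose and 8 fell (median 0.14, 0.15 less neighbours). SLC1A5, the main glutamine carrier, rose from 10259.7 ± 221 to 18199 ± 1263 (log2 change 0.82 ± 0.05), SLC6A9, a glycine carrier, rose from 231 ± 29 to 498 ± 9.76 (log2 change 1.11 ± 0.11), and SLC38A7 of lysosomes fell from 527 ± 76.1 to 328 ± 25.2 (log2 change -0.68 ± 0.10).

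In the tricarboxylic acid cycle and glutamine use 20 of 37 genes fell and 8 rose (median -0.16, -0.13 less neighbours). SDHB, a subunit of succinate dehydrogenase in the chromosome 1 run, fell from 7971 ± 105 to 4647 ± 423 (log2 change -0.78 ± 0.06), and citrate synthase, CS, rose from 8091 ± 144 to 9521 ± 515 (log2 change 0.23 ± 0.05). Glycolysis and pentose phosphate enzymes fell in 18 of 42 cases and rose in 10 (median -0.12, -0.07 less neighbours), with the glucose carrier SLC2A3 lower (-1.04) and the regulator PFKFB3 higher (1.1), while PKM, pyruvate kinase, did not pass (log2 change -0.05, adjusted p = 0.47). Purine and pyrimidine synthesis fell in 27 of 48 cases and rose in 8 (median -0.19, -0.12 less neighbours). CAD, which starts pyrimidine synthesis, fell from 9653 ± 278 to 7646 ± 448 (log2 change -0.34 ± 0.05), and DTYMK, thymidylate kinase in the chromosome 2 run, fell from 4006 ± 61.4 to 2066 ± 186 (log2 change -0.96 ± 0.06). NME4, a mitochondrial nucleotide kinase, rose from 1151 ± 55 to 2126 ± 89.1 (log2 change 0.88 ± 0.05). Serine, glycine and one-carbon enzymes rose in 15 and fell in 12 of 37 cases, with PHGDH of serine synthesis higher (0.16) and MTRR of methionine synthesis lower (-0.90).

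Lists of mixed direction were the hypoxia response, with 17 higher and 13 lower of 38, and iron, heme and iron-sulfur genes, with 20 and 14 of 56. HIF1A, the hypoxia factor, fell from 13769.8 ± 434 to 10385 ± 255 (log2 change -0.41 ± 0.05), and EGLN2, one of the hydroxylases that mark it, rose from 68.7 ± 13.4 to 209 ± 33.8 (log2 change 1.6 ± 0.17). ISCU, the scaffold for iron-sulfur clusters, fell from 1309 ± 47 to 603 ± 31.6 (log2 change -1.12 ± 0.06), and IBA57, which acts late in that pathway, rose from 503 ± 34.7 to 1090.5 ± 60.1 (log2 change 1.12 ± 0.07). Mitochondrial carriers and protein import showed 29 higher and 36 lower of 98 (medians of -0.02, and of 0.02 after subtraction of neighbours, so of no steady sign). Glutathione, thioredoxin and NRF2 target genes showed 17 and 18 of 48, with a median of -0.01 that was 0.03 with quantile normalization and -0.01 less neighbours. SELENBP1 fell from 727 ± 29.5 to 337 ± 28 (log2 change -1.11 ± 0.09) and GSTM2, a glutathione transferase, rose from 74.1 ± 16.2 to 222 ± 15.3 (log2 change 1.59 ± 0.23), against 9.13 in the ZC3H7B line.

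The machinery that represses and degrades mRNA, the setting in which CCCH proteins act, moved in parts. Of 44 CCCH zinc finger genes 17 rose and 7 fell, ZC3H7A being the largest rise, and the median of 0.02 was -0.01 after subtraction of neighbours. ZC3H8 fell from 1074 ± 9.24 to 600.0 ± 28.4 (log2 change -0.84 ± 0.07), while ZFP36L1 did not pass (log2 change 0.00, adjusted p = 0.97). Cap-binding proteins and the 4EHP-GIGYF repressors rose in 11 of 23 cases and fell in 7 (median 0.10, 0.03 less neighbours). EIF4E2, the cap-binding repressor 4EHP, fell from 3055 ± 199 to 2128 ± 149 (log2 change -0.52 ± 0.06), and EIF4G3, a scaffold of initiation, fell from 15338 ± 254 to 8402 ± 421 (log2 change -0.87 ± 0.04). They lie in the falling runs of chromosomes 2 and 1, and their changes less those of their neighbours were -0.10 and -0.31. Both were lower with ZC3H7A than with ZC3H7B as well (-0.85 and -0.74). EIF4A1, an abundant helicase, was listed at only 49.4 in the control, so its rise to 106 is uncertain, since how reads with several positions were counted is not stated in the sources.

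CCR4-NOT and PAN2-PAN3, which shorten the poly(A) tail, showed 7 higher and 7 lower of 20, with a median of -0.03 that was 0.04 with quantile normalization and -0.04 less neighbours. CNOT1, the scaffold of the complex, did not pass (log2 change -0.09, adjusted p = 0.076), BTG1, an antiproliferative partner in the chromosome 12 run, fell from 1834 ± 76.9 to 1051 ± 43.4 (log2 change -0.80 ± 0.06), and TNKS1BP1 rose from 734 ± 48.1 to 1313 ± 171 (log2 change 0.83 ± 0.08). Decapping and 5′ decay factors rose in 11 of 23 cases and fell in 3 (median 0.14, 0.03 after subtraction of neighbours). DCP2, the decapping enzyme, rose from 3946 ± 203 to 5124 ± 697 (log2 change 0.37 ± 0.07), and those that fell, the last 2 named after their values were seen, were LSM3 (-0.41), XRN1 and DCP1B. The RNA exosome, which degrades from the 3′ end, fell in 13 of 26 cases and rose in 4 (median -0.12, -0.19 less neighbours). EXOSC10, its nuclear nuclease in the chromosome 1 run, fell from 8201 ± 196 to 4954 ± 86.8 (log2 change -0.73 ± 0.04), and the ring subunit EXOSC4 on chromosome 8 rose from 552 ± 21 to 771 ± 71.8 (log2 change 0.48 ± 0.08); the others that rose, named after their values were seen, were EXOSC5, EXOSC6 and PAPD5. Nonsense-mediated decay and exon junction factors rose in 11 of 21 cases and fell in 4, where UPF1 did not pass (-0.03, adjusted p = 0.63), DHX34 rose (0.58) and UPF3B fell (-0.42).

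The translation machinery itself changed in both directions. Initiation, elongation and release factors showed 16 higher and 20 lower of 52, with a median of -0.05 that was 0.0083 with quantile normalization and -0.07 less neighbours. EEF2, the translocase of elongation, fell from 73768 ± 2172 to 64323 ± 3212 (log2 change -0.20 ± 0.05) and was lower than in the ZC3H7B line, where it stood at 98265 (log2 difference -0.61). EEF1D, an exchange factor in the chromosome 8 run, rose from 2009 ± 49.5 to 3504 ± 104 (log2 change 0.80 ± 0.05), and MCTS1, a factor of re-initiation and ribosome recycling, fell from 3613 ± 45.5 to 2228 ± 82.5 (log2 change -0.70 ± 0.05). Ribosome rescue and quality control of stalled ribosomes fell in 12 of 30 cases and rose in 6 (median -0.10, -0.07 less neighbours). LTN1, the ligase that marks stalled chains, fell from 9937 ± 153 to 5529 ± 107 (log2 change -0.85 ± 0.04) and was also lower than with ZC3H7B (-0.42). PELO, which splits stalled ribosomes, rose from 1211 ± 80.0 to 1403 ± 43.7 (log2 change 0.21 ± 0.06).

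Cytosolic aminoacyl-tRNA synthetases showed 7 higher and 9 lower of 23 (median -0.04, -0.02 less neighbours, 0.09 with quantile normalization). The subunits of phenylalanyl-tRNA synthetase moved in opposite directions: FARSA on chromosome 19 rose from 3227 ± 189 to 5223 ± 429 (log2 change 0.69 ± 0.06) and FARSB on chromosome 2 fell from 10802 ± 276 to 5496 ± 172 (log2 change -0.97 ± 0.05). After subtraction of their neighbours FARSA stood at 0.18 and FARSB at -0.98. Mitochondrial ribosomal proteins showed 33 lower and 19 higher of 81, with MRPL36 lower at -0.91, and against ZC3H7B cells 24 were lower and 7 higher. Mitochondrial synthetases and translation factors showed 14 lower and 8 higher of 34, with GFM2, a recycling factor, lower at -0.46. MRPL12 and SARS2, the largest rises of these lists, were listed at 58.7 and 57.9 in the control, low for genes of this function, and are uncertain. tRNA modification enzymes, only some of which act at the tRNA position that reads the third codon base, rose in 21 and fell in 21 of 67 cases. TRMT61A, which methylates an adenosine of tRNA, rose from 233 ± 9.32 to 558 ± 44.6 (log2 change 1.25 ± 0.09), TPRKB of the complex that makes threonylcarbamoyladenosine fell from 2141 ± 146 to 1062 ± 57.7 (log2 change -1.01 ± 0.06), and ELP3 of the wobble uridine pathway did not pass (-0.04, adjusted p = 0.53).

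Ribosome biogenesis factors rose in 46 of 120 cases and fell in 31 (median 0.06, 0.06 less neighbours). FBL, fibrillarin, which methylates ribosomal RNA, rose from 19542 ± 822 to 36157 ± 1809 (log2 change 0.89 ± 0.05), and its change less that of its chromosome 19 neighbours was 0.34. NOL9, a kinase of ribosomal RNA processing in the chromosome 1 run, fell from 7988 ± 115 to 4918 ± 85.7 (log2 change -0.70 ± 0.04). SR proteins and hnRNPs, which guide splicing, rose in 20 and fell in 11 of 54 cases, with HNRNPA3 higher (0.97) and HNRNPLL lower (-0.48). The core spliceosome showed 25 higher and 21 lower of 77, with a median of 0.03 that was -0.02 after subtraction of neighbours, and SF3B1, which recognizes the branch point, fell from 42410.4 ± 462 to 35489.8 ± 791 (log2 change -0.26 ± 0.04). Nuclear pore and transport genes showed 32 lower and 20 higher of 74 (median -0.07, -0.09 less neighbours, 0.02 with quantile normalization), with NUP107 of the pore scaffold lower (-0.27) and the import receptor TNPO2 higher (0.79). RNA polymerase II, Mediator and Integrator showed 31 higher and 38 lower of 104 (median -0.03, -0.04 less neighbours, 0.0015 with quantile normalization). MED10 of Mediator fell from 2709.8 ± 119 to 1196 ± 75.9 (log2 change -1.18 ± 0.06), with 3821 in the ZC3H7B line, and TAF4 of the general factor TFIID rose from 685 ± 27.2 to 1337 ± 81.8 (log2 change 0.96 ± 0.06).

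Chromatin regulators rose more often than they fell or about as often. Polycomb group genes, which keep developmental genes silent, rose in 21 of 43 cases and fell in 6, with the same median of 0.14 before and after subtraction of neighbours. BMI1, a subunit of Polycomb complex 1, rose from 452 ± 45.5 to 1007 ± 133 (log2 change 1.15 ± 0.09), PCGF6 of a variant complex fell from 1012 ± 48.9 to 729 ± 95.4 (log2 change -0.48 ± 0.08), and the methyltransferase EZH2 did not pass (0.07, adjusted p = 0.16). DNA and histone methylation enzymes rose in 26 of 71 cases and fell in 10. DNMT1, which copies DNA methylation, rose from 12684 ± 449 to 16103 ± 584 (log2 change 0.34 ± 0.05), but its change less that of its chromosome 19 neighbours was -0.15, and CARM1, an arginine methyltransferase, rose from 2099 ± 96.9 to 3869 ± 38 (log2 change 0.88 ± 0.05). SWI/SNF, CHD and other remodellers showed 25 higher and 20 lower of 62. SMARCE1 rose from 758 ± 75.6 to 1528 ± 189 (log2 change 1.01 ± 0.08), SMARCA4, the ATPase of SWI/SNF on chromosome 19, rose from 7338 ± 280.2 to 11769 ± 559 (log2 change 0.68 ± 0.05), and HELLS, a remodeller needed for DNA methylation, fell from 30854 ± 198 to 20997 ± 693 (log2 change -0.56 ± 0.04). TRIM proteins, many of them ubiquitin ligases, rose in 19 of 46 cases and fell in 6, or 5 without 1 member that entered through the control libraries alone, with TRIM71, a regulator of stem cell mRNAs, higher (1.09).

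Signalling lists leaned in different directions. Hedgehog signals pass through the cilium, which intraflagellar transport builds, and 32 of 68 such genes fell while 11 rose (median -0.15, -0.09 less neighbours). IFT88, of the transport complex, fell from 1412 ± 31.5 to 803 ± 27.4 (log2 change -0.81 ± 0.06), TCTN1 of the transition zone in the chromosome 12 run fell from 1621 ± 68.3 to 752 ± 4.63 (log2 change -1.11 ± 0.06), and HHIP, a decoy for Hedgehog ligands, rose from 159 ± 5.20 to 367 ± 3.90 (log2 change 1.2 ± 0.11). Wnt pathway genes rose in 24 and fell in 19 of 73 cases, with a median of 0.03 that was -0.04 with quantile normalization and 0.06 less neighbours. CTNNB1, beta-catenin, fell from 41646 ± 1251 to 35715 ± 1157 (log2 change -0.22 ± 0.05), the receptor FZD6 fell from 2847 ± 81.1 to 1791 ± 25.4 (log2 change -0.67 ± 0.05) and the ligand WNT2B rose from 62.3 ± 9.92 to 138 ± 24.3 (log2 change 1.13 ± 0.19). In the TGF-beta and BMP pathway 19 rose and 17 fell of 56, with the ligand GDF7 higher (2.21), the shared SMAD4 higher (0.23) and TGFB2 lower (-1.06). In the Notch pathway 15 rose and 14 fell of 44, with the ligand DLK2 higher (1.51) and the gamma-secretase subunit NCSTN lower (-0.70).

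Receptor tyrosine kinases and their ligands fell in 25 and rose in 19 of 62 cases (median -0.11, -0.11 less neighbours), but against ZC3H7B cells 17 were higher and 5 lower. The ligand FGF5 fell from 206 ± 20.9 to 82.6 ± 1.75 (log2 change -1.30 ± 0.15) and ANGPT2, of vessel remodelling, rose from 39.2 ± 3.46 to 144 ± 26.5 (log2 change 1.84 ± 0.21). Ephrins, semaphorins, plexins and slits, which guide axons and cells, fell in 23 and rose in 18 of 66 cases. EPHA3, an ephrin receptor, fell from 1423 ± 28 to 416 ± 20.7 (log2 change -1.77 ± 0.06) and was also lower than with ZC3H7B (-1.16). ERK feedback and ETS genes rose in 23 of 49 cases and fell in 10 (median 0.04, 0.24 after subtraction of neighbours). DUSP6, a phosphatase of ERK, rose from 389.7 ± 11.4 to 569 ± 47.5 (log2 change 0.54 ± 0.08), PHLDA1 rose from 56.4 ± 12.6 to 162 ± 36.3 (log2 change 1.51 ± 0.20) and DUSP1 fell from 587 ± 25.9 to 367 ± 27 (log2 change -0.68 ± 0.08). In the Hippo pathway 20 rose and 12 fell of 42, among them YAP1 lower (-0.46). AMOT on the X chromosome, angiomotin, which holds YAP in the cytoplasm, stood at 663, 774 and 688 in the control libraries and 16178, 15917 and 15142 with ZC3H7A (log2 change 4.48 ± 0.05, adjusted p = 3.0e-25), 3909 being its mean in the ZC3H7B line. Among the named genes none had a smaller adjusted p.

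Nutrient sensing by mTORC1 and AMPK showed 21 higher and 21 lower of 65. MTOR, the kinase itself, fell from 8752 ± 235 to 5101 ± 197 (log2 change -0.78 ± 0.04), and by -0.33 relative to its chromosome 1 neighbours, while SESN1 fell from 2743 ± 52.4 to 1288 ± 62 (log2 change -1.09 ± 0.05) and AKT2 on chromosome 19 rose from 3507 ± 89.9 to 6583 ± 216 (log2 change 0.91 ± 0.05). Cyclins, their kinases and inhibitors showed 21 higher and 20 lower of 56. CCND1, cyclin D1, rose from 1205 ± 29.8 to 2241 ± 144 (log2 change 0.89 ± 0.07), E2F1 rose from 451 ± 15.6 to 899 ± 44.6 (log2 change 0.99 ± 0.15) and CDKN1A, the inhibitor p21, fell from 1536 ± 49.7 to 478 ± 28.5 (log2 change -1.68 ± 0.07). Apoptosis regulators fell in 19 and rose in 14 of 47 cases, with the survival protein MCL1 higher (0.35), the death activator HRK higher (1.05) and the initiator caspase CASP10 lower (-1.35).

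Cytoskeletal lists leaned in different directions. Tubulins and microtubule-associated proteins rose in 26 of 50 cases and fell in 12 (median 0.18, 0.10 less neighbours), and actin with its regulators fell in 41 of 81 and rose in 17 (median -0.11, -0.10 less neighbours). TUBB, the main beta-tubulin, rose from 18621 ± 808 to 23304 ± 2075 (log2 change 0.32 ± 0.05), STMN3, a neuronal protein that binds tubulin, rose from 487 ± 40.1 to 1318 ± 45.7 (log2 change 1.44 ± 0.07), and TUBB2B fell from 1451 ± 35.8 to 767 ± 46.3 (log2 change -0.92 ± 0.08). Tubulin and actin genes have near-identical copies, so single members are uncertain. ACTB, beta-actin, rose from 26244 ± 621 to 28893 ± 1745 (log2 change 0.14 ± 0.05), and CNN2, a calponin, rose from 361 ± 12.5 to 1182 ± 66.4 (log2 change 1.71 ± 0.07), both against the lean of the list. Kinesins, dynein and dynactin showed 20 higher and 18 lower of 54, with a median of 0.03 that was -0.0050 after subtraction of neighbours. KIF5B, a transport kinesin, fell from 31529.6 ± 455 to 26842 ± 424 (log2 change -0.23 ± 0.04) and KIF26A rose from 169 ± 31.7 to 504 ± 36.9 (log2 change 1.58 ± 0.12). Of intermediate filaments, lamins and septins 7 fell and 4 rose of 18. VIM, vimentin, rose from 17869 ± 545 to 24641 ± 1114 (log2 change 0.46 ± 0.05) and INA, a neuronal filament, rose from 844 ± 4.99 to 1901 ± 29.3 (log2 change 1.17 ± 0.05), while the epithelial keratins KRT19 and KRT8 fell, from 627 ± 15.8 to 101 ± 5.10 (log2 change -2.62 ± 0.10) and from 921 ± 26.8 to 330.2 ± 33.7 (log2 change -1.48 ± 0.08).

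Lists of protein folding and turnover moved in both directions. Heat shock proteins and co-chaperones rose in 22 of 51 cases and fell in 12, with a median of -0.03 that was 0.05 with quantile normalization and 0.00034 less neighbours. HSPA8, the constitutive chaperone, fell from 75577 ± 1475 to 66753 ± 3975 (log2 change -0.18 ± 0.06), DNAJC8 in the chromosome 1 run fell from 4732 ± 209 to 2593 ± 73.9 (log2 change -0.87 ± 0.05) and BAG5 in the chromosome 14 run rose from 1911 ± 44.5 to 3579 ± 219 (log2 change 0.90 ± 0.05). Chaperonin and prefoldin showed 6 higher and 8 lower of 20, with CCT2 lower (-0.35) and URI1 higher (0.82). Proteasome subunits showed 17 higher and 21 lower of 49 (median -0.07, -0.13 less neighbours). PSMD1, a large subunit of the cap in the chromosome 2 run, fell from 22209 ± 795 to 14254 ± 467 (log2 change -0.64 ± 0.05), and PSMC1, listed at 62.6 in the control, is uncertain. Cullins and their adaptors showed 50 higher and 45 lower of 157, with CUL3 lower (-0.85) and by -0.43 relative to its chromosome 2 neighbours. Deubiquitinases showed 19 and 24 of 70, with a median of -0.03 that was 0.03 after subtraction of neighbours, and USP44, a regulator of mitosis in the chromosome 12 run, fell from 627 ± 78.5 to 195 ± 26.4 (log2 change -1.68 ± 0.11).

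Markers of the cell line and of other cell types were read to check the label. Of 25 embryonic kidney and neural markers that HEK293 cells are known for, 20 passed the filter and none lacked reads, 8 rose and 6 fell. Their summed level was 40989 to 43278 in control libraries and 45985 to 49379 with ZC3H7A, and without VIM, the marker with the highest level, 23535 to 24792 and 22563 to 23773. PAX2, a kidney factor, did not pass (log2 change -0.16, adjusted p = 0.4). Of 18 fibroblast and mesenchymal markers 12 were tested, 6 fell and 2 rose (median -0.29, -0.08 after subtraction of neighbours), and without 1 member that passed the filter through the control libraries alone 5 fell. ACTA2, smooth muscle actin (chr10:88935074-88991339), stood at 1698, 1530.1 and 1575 in the control libraries and 270.5, 334 and 274 with ZC3H7A (log2 change -2.45 ± 0.08, adjusted p = 1.5e-16). PDGFRA, a growth factor receptor (chr4:54229097-54298247), stood at 84.8, 64.6 and 65.4 in the control libraries and 147, 138 and 121 with ZC3H7A (log2 change 0.92 ± 0.20, adjusted p = 4.0e-04). COL1A1, the main fibrillar collagen (chr17:50183289-50201632), stood at 79.7, 89.7 and 70.4 in the control libraries and 95.1, 109 and 91.3 with ZC3H7A (log2 change 0.30 ± 0.17, adjusted p = 0.12). ACTA2 was lower and PDGFRA higher without overlap, and COL1A1 did not pass.

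The summed fibroblast markers were 12140.2 to 12698 in control libraries and 8389 to 9238 with ZC3H7A. Without FN1, the marker with the highest level, they were 5946 to 6333 and 2585 to 2919. They move with the falls of the matrix lists, a link that was not tested. Some markers were at or near 0 in control and ZC3H7A cells: DCN at 1.22 and 0.89, COL1A2 at 0.42 and 0.88, and THY1 at 0.42 and 2.27. Others stood well above 0: FN1 at 6223 and 6143, FBLN1 at 2900 and 1636, and MMP2 at 1042 and 252. Of 19 blood and endothelial markers 6 were tested, and the sums were 688 to 891 against 336 to 414. Most of that was HBB, a globin gene, at 687 and 230.3, without which the sums were 98.1 to 130.4 against 143 to 153, and PTPRC, CD3E and VWF stood below 3 in both groups. In such bulk samples fewer cells of a type and less RNA per cell cannot be told apart.

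The 8 genes with the highest levels can be given with small errors. HNRNPA2B1, a splicing regulator, rose from 168470.0 ± 2781 to 191410.4 ± 4245 (log2 change 0.18 ± 0.06). The cytosolic chaperone HSP90AA1 in the chromosome 14 run rose from 136099 ± 3219 to 167858 ± 8532 (log2 change 0.30 ± 0.06), and its relative of the ER, HSP90B1 in the chromosome 12 run, fell from 139638 ± 4965 to 87820.1 ± 4871 (log2 change -0.67 ± 0.06). Each moved with the run in which it lies, and their changes less those of their neighbours were -0.26 and -0.01. NCL, nucleolin, in the chromosome 2 run, fell from 137063 ± 5052 to 103656 ± 5943 (log2 change -0.40 ± 0.06), and the ER chaperone CANX fell from 126203 ± 2562 to 94563 ± 2277 (log2 change -0.42 ± 0.05). MT-ND5, encoded by mitochondrial DNA, rose from 98866 ± 10042 to 112307 ± 6073 (log2 change 0.19 ± 0.07). Of the glycolytic enzymes ENO1, in the chromosome 1 run, fell from 123753 ± 5757 to 85844 ± 4883 (log2 change -0.53 ± 0.07), and LDHB did not pass (log2 change 0.02 ± 0.06, adjusted p = 0.78).

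By type of RNA, 13185 of the genes tested were protein-coding, 4151 of which rose and 4201 fell. Small RNA genes rose more often than they fell: 21 of 85 snoRNA genes, which guide modification of ribosomal RNA, rose and 2 fell, 14 of 57 snRNA genes of the spliceosome rose and 1 fell, and 20 of 51 miRNA genes rose and 4 fell. Their median levels were 44.5, 31.3 and 21.7, each under 57.7, the upper limit of the lowest class by level, where rises outnumbered falls for all genes. These RNAs are not translated, and fragments of the size of footprints can come from them without a ribosome. Processed pseudogenes, 494 of them, rose in 51 cases and fell in 47, and share sequence with their parent genes.

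The direct comparison of ZC3H7A with ZC3H7B cells called 37.7% of genes, 5682 in all, with 2880 higher and 2802 lower in ZC3H7A cells. Beside the lists whose counts in this comparison are given above, COPI, COPII and TMED genes were higher in 19 cases and lower in 6, and integrins and focal adhesion genes in 15 and 4. Other lists leaned to lower levels with ZC3H7A: tRNA modification enzymes with 22 lower and 7 higher, Hedgehog and intraflagellar transport genes with 24 and 11, and cytosolic aminoacyl-tRNA synthetases with 9 and 1. TFPI, which fell against control, was higher with ZC3H7A than with ZC3H7B (log2 difference 0.69), and DLGAP1 likewise (1.49). LAMP1, GAA and EMC1 were lower with ZC3H7A in that comparison (-0.16, -0.45 and -0.48). For B2M, ITGB1 and COL4A1 the difference did not pass (-0.06, 0.02 and 0.08).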

How the data were processed

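Ribosome profiling was measured in 15 libraries of HEK293 cells, of which the 3 Flag/HA control and 3 Flag/HA-ZC3H7A libraries are compared here. The deposited table holds normalized counts, a signal that the authors made before deposit, per the file headers and values: in each library the values were whole multiples of what 1 read is worth, so reads could be recovered, for 100% of values to within 0.001 reads. The submitters' processing notes list DESeq2, HTSeq, STAR, Bowtie and cutadapt, and both hg38 and hg19, without saying how each was used. The build of the alignment, the use of strand in counting and the handling of multi-position reads are not given in the sources used, so overlapping genes and near-identical copies are uncertain.

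The main test was limma 3.58.1 (R 4.3.3), with lmFit and a trended eBayes, applied to log2(value + 1). Genes had to reach 10 in at least 3 of the 6 libraries compared. All 9 Flag/HA libraries entered 1 fit that had contrasts of ZC3H7A against control and against ZC3H7B, and calls were made at a Benjamini-Hochberg adjusted p under 0.05. The step was tested on simulated data for ZC3H7A against control with 15069 genes. In these 67, 67 and 66 genes were changed 1.5-, 2- and 4-fold. It recovered 67.2%, 83.6% and 98.5% of these changes, and 5.68% of its calls were false. Far more genes, 8879, were called in the real comparison, so these rates need not hold there. Numbers of reads given for a gene are recovered reads, and no molecular identifiers are mentioned. Chi-square per degree of freedom between replicates of a group was 1.63 to 5.84, so none was a copy of another. Tables were made with Python 3.11.15, pandas 2.3.3 and scipy 1.17.1 and figures with matplotlib 3.10.9.

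Of the 55773 gene names, 23215 had no read in the 6 libraries, 35119 matched GENCODE 29 on GRCh38 and 19078 had a coding sequence there. Positions are those of GENCODE 29, whichever build the reads were aligned to. Spreadsheet software had changed 28 gene names to dates, and 4 rows bear duplicated names; both kinds were tested as unnamed genes. Named are both targets and, of each list with 8 or more members tested, an anchor gene and the member with the largest rise and the largest fall among called genes whose groups did not overlap and that reached a mean of 100 in either group. The 8 genes with the highest mean level and 4 coding sequences are named too, and 6-library values are printed for the 12 lists with the largest medians. Some genes that this rule names are not reported here. The lists and members were chosen with earlier results of these data known. Alternatives were other pseudocounts, filters and scalings, edgeR 4.0.16, DESeq2 1.42.0, a replicate block, only the 6 libraries compared and leaving out each library. Window and neighbour steps were added after seeing the data.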

Additional observations from a re-analysis of the deposited data

How the results depend on the processing

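Counts of genes that rose lay between 4028 (filter of 50) and 4601 (replicate block), and of genes that fell between 3980 and 4505, over every alternative fit. Without 1 library, 4051 to 4229 genes rose and 3980 to 4294 fell, and at least 2-fold changes numbered 685 to 840 higher and 465 to 521 lower. With a filter of 50 these were 403 higher and 292 lower, since fewer genes were tested, and with a pseudocount of 10, which shrinks low genes, 483 and 339. edgeR's quasi-likelihood test on the recovered reads called 4592 higher and 4404 lower and DESeq2 4094 and 4396. Outside the shifted windows, 3151 protein-coding genes rose and 3725 fell, against 4151 and 4201 in all.

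The difference in median log2 change between the outer AT3 classes was -0.37. It was -0.47 between the outer of 10 classes, -0.26 with quantile normalization, -0.18 after subtraction of neighbouring genes, -0.32 outside the shifted windows and -0.39 to -0.33 without 1 library. The difference between the outer classes by level was -0.26 and became 0.0029 with quantile normalization, which gives every library the same distribution of values. It was -0.28 to -0.22 without 1 library. Replicate numbers are shared between the groups, but same-numbered libraries did not deviate together (correlations of 0.051, -0.057 and 0.05), so they were not treated as pairs. With the replicate block 4601 genes rose and 4486 fell, 775 and 483 at least 2-fold, and the AT3 difference was -0.37.

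Of 230 named genes 212 were called, against 58.9% of all genes tested. Many of the 230 were named because they passed the test with a large change, so steady calls were favoured by that choice. The alternatives also reuse the same libraries. Over 3680 alternative values of these genes none reversed, 35 lost a call (12 genes) and 26 gained one (10 genes). Medians of 8 lists changed sign with quantile normalization and of 8 after subtraction of neighbours, all of them 0.07 or less in size, and none with TMM scaling. Sizes were less steady than signs. Of 76 medians, 58 counted as moved rather than the same with quantile normalization. After subtraction of neighbours 43 did, and without Flag/HA-ZC3H7A replicate 3 24 did. With quantile normalization the homeobox median went from 0.40 to 0.31 and that of collagens from -0.27 to -0.34. The median SE of a change was 0.37 in the lowest class by level and 0.047 in the highest, so changes of low genes were measured less precisely.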
